A study of Mus musculus with 6 samples.

Results

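The genes described here encode the channels that admit calcium to the cell, the channels that release it from internal stores and the pumps that clear it from the cytosol. They were chosen by symbol from the deposited table: transient receptor potential channels (Trpc, Trpm, Trpv), voltage-gated calcium channel subunits (Cacna, Cacnb, Cacng), store-operated entry genes (Orai, Stim), release channels (Itpr, Ryr), calcium pumps (Atp2a, Atp2b, Atp2c), and Pln, Casq2 and Ano1. The rule took 59 protein-coding genes of 21785 rows, and 13 other genes that it covers in GENCODE M21 were not analysed here. Both Trpc4ap, which encodes a TRPC4-associated protein, and Trpc5os, an opposite-strand gene, match by symbol and are not channels.

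The cells were PASMCs, smooth muscle cells of the pulmonary artery that contract to set its width, cultured from vessel pieces of C57BL/6 mouse lungs that had been filled with iron and agarose and pulled out by magnet. In the stimulated group (3 samples) the ligands BMP9 (1 ng/mL) and BMP10 (5 ng/mL), both bone morphogenetic proteins, were given together for 6 h in unsupplemented medium. The control group (3 samples) was given neither, and all cells had been kept unsupplemented for 48 h beforehand. Separate animals or cultures are not named for the samples, so p-values measure the spread between these samples, which may be technical.

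In smooth muscle, calcium that enters through voltage-gated, store-operated and TRP channels, or leaves the sarcoplasmic reticulum through inositol trisphosphate and ryanodine receptors, activates contraction. Pumps of the SERCA family (Atp2a genes) return it to the reticulum, plasma membrane calcium ATPases (Atp2b) expel it, and secretory pathway pumps (Atp2c) load the Golgi. Emptying of the stores is sensed by STIM proteins, which open ORAI channels in the plasma membrane.

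Both Orai3 and Atp2b1, described below, had lower RNA in stimulated samples, and for each the RefSeq promoter window (build GRCm38.p6, plus strand) that holds no annotated exon is shown. A further Atp2b1 window lies mostly in exon and is not printed. Each line gives the 250 bases before a RefSeq transcript start, with motif matches in capitals. The Orai3 window is chr7:127769565-127769814 and ends at the annotated start of the gene. The Atp2b1 window is chr10:98914902-98915151 and precedes a start that lies 746 bases inside the annotated gene.
Orai3: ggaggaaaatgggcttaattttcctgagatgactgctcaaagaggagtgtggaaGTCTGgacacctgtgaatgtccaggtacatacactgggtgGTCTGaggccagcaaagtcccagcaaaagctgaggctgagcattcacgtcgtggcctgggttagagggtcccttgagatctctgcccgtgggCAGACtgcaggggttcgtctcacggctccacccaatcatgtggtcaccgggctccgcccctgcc
Atp2b1: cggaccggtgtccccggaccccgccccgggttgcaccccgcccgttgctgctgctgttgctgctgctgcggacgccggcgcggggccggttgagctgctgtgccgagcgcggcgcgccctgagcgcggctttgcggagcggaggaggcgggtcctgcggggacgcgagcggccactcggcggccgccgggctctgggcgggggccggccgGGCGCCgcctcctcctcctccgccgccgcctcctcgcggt

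The motifs searched, on both strands, were GGCGCC, a GC-rich sequence that BMP-activated SMAD proteins bind, GTCTG, which contains the SMAD box GTCT, and the CArG box of serum response factor. The Orai3 window held GTCTG 3 times, once on the opposite strand as CAGAC, starting 196, 156 and 64 bases before the start. The Atp2b1 window held GGCGCC once, 40 bases before the start, and neither printed window held a CArG box. The other windows of called members (Atp2b1, Atp2b4 and both of Atp2c1) held none of these motifs. RefSeq windows were found for 46 of the 59 members, 60 windows in all. GGCGCC was in 7 of them (11.7%, against 9.59% of 32851 windows of all genes), GTCTG in 25 (41.7%, against 42.2%) and the CArG box in 2 (3.33%, against 1.47%). A match describes the letters of a window and not a site that a factor uses.

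The deposited values are read counts scaled by 1 factor per library and rounded, called normalized read counts below. They sum to between 30786695 and 31903795 in stimulated libraries and between 27295973 and 28283597 in control libraries, and the steps between values give an estimated depth in reads of 23.3, 28.0 and 54.4 M in stimulated replicates 1, 2 and 3 and of 26.4 to 27.6 M in controls. Precision is therefore best in stimulated replicate 3. Markers of the labelled cell type were present in all libraries, since 10 of 10 smooth muscle genes (Acta2, Myh11, Cnn1 and others) were above 0, with summed values of 87172 to 186171 in stimulated and 36953 to 56212 in control libraries, and 4 of the 10 (Acta2, Tagln, Cnn1 and Lmod1) rose. Most of these sums was Acta2, and without it they were 18078 to 33007 in stimulated and 13483 to 20066 in control libraries, which overlap. Both Des and Synpo2 leaned lower in stimulated libraries and were not called (log2 change -0.43 and -0.12, limma adjusted p = 0.302 and 0.782). Transcripts of other cell types were present too. The 10 fibroblast markers summed to 263252 to 461594 in stimulated and 298139 to 404939 in control libraries, above the smooth muscle sums. Most of it was Col1a1 and Col1a2, and of the 10 genes Mfap5 rose and Pdgfra fell. The 10 epithelial markers summed to 3565 to 39044 in stimulated and 8890 to 38438 in control libraries. The 10 macrophage markers summed to 142750 to 215828 in stimulated and 95927 to 165808 in control libraries, most of it Lyz2. The 12 endothelial markers summed to 10354 to 45120 and 12512 to 46197, with 12 of 12 highest in replicate 2 of both groups and none at 0. Since the samples are bulk RNA, fewer cells of a type and less RNA per cell cannot be told apart for any gene below.

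Across the members, mean levels over the 6 libraries spanned 1.17 to 10935 normalized read counts. Of the 59, 33 had a mean of at least 50 and 15 a mean under 10. Per kilobase of merged exon, the scale on which genes can be compared, the SERCA gene Atp2a2 stood highest in both groups, with means of 2078 in stimulated and 1519 in control samples. By the mean of all 6 libraries it was followed by Trpc4ap (735 in stimulated and 670 in control samples), Orai3 (464 and 671), Trpm7 (457 and 375) and the accessory subunit gene Cacnb3 (372 and 389). The order differed by group, since Atp2c1 (501 and 253) stood above Orai3 in stimulated samples and Orai3 stood just above Trpc4ap in controls. The plot of mean levels shows most members close to the line of equal level, with Cacna1g, Atp2b4 and Atp2c1 above it among the well-measured genes.

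**Figure D1:**
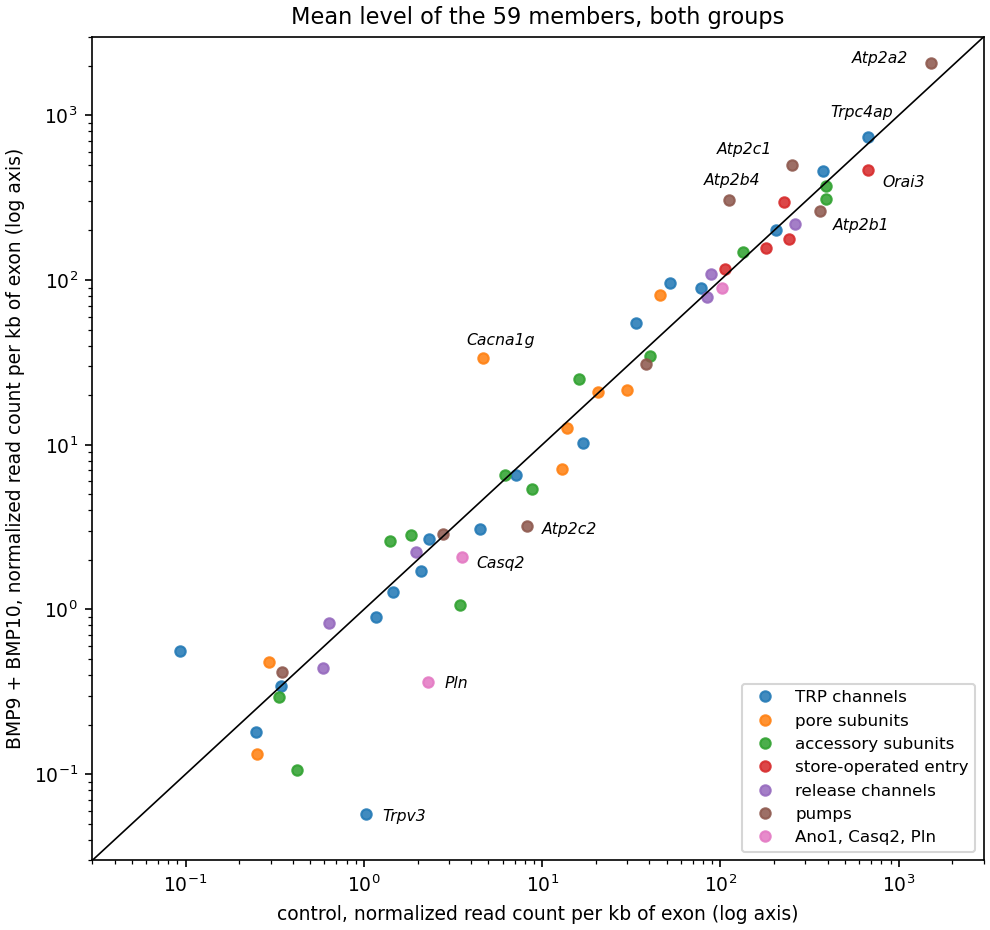
Mean normalized read count per kilobase of merged exon for the 59 members, stimulated samples on the y axis and control samples on the x axis, both log axes (means of 3 libraries each), coloured by role. The line marks equal level; Cacna1g (33.8 stimulated, 4.67 control) lies farthest above it among genes with a mean of at least 50, and points under 10 per kilobase rest on few reads.

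Changes below are stimulated minus control on the log2(value + 1) scale ± SE, and a gene is called changed at an adjusted p under 0.05 by limma with Benjamini-Hochberg adjustment over 21743 genes. On this rule 6 of the 59 members changed (10.2%), 4 higher and 2 lower, against 13.4% of all genes tested (8.61% higher and 4.75% lower), so the share of members called was no larger than that of other genes. Their median change was -0.04, against -0.03 over all genes tested. Stimulated and control values did not overlap for 11 members (18.6%), 5 higher and 6 lower, against 33.2% of all genes. Among the 33 members with a mean of at least 50, 6 were called (18.2%), against 20% of all genes at that level. Same-numbered libraries deviated together, clearly for numbers 1 and 2 and weakly for number 3 (correlations of 0.747, 0.741 and 0.218). When the replicate number therefore entered the fit as a block, 18 members passed limma (30.5%), 11 higher and 7 lower. This compares with 26.8% of all genes (14.9% higher and 12% lower). The 18 include the 6 called without the block. At a mean of at least 50 they number 17 of 33 (51.5%), against 39.8% of all genes at that level.

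The pumps held 4 of the 6 calls. This was 50% of the 8 pump genes, against 13.4% of all genes tested and 20% of those with a mean of at least 50. Of 8 pump genes, Atp2b4, Atp2c1 and Atp2a2 rose and Atp2b1 fell, Atp2c2 missed the threshold narrowly, and Atp2a1, Atp2a3 and Atp2b3 did not pass. The summed level of the pump genes per kilobase was 3187 ± 175 in stimulated and 2296 ± 87.9 in control samples (SD, n = 3 each), with no overlap between groups. Most of that sum was Atp2a2 alone, at 2078 in stimulated and 1519 in control samples.

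Atp2b4 (chromosome 1, 133699457 to 133801041, minus strand, mm10) encodes the plasma membrane calcium ATPase PMCA4. It had 3722, 3575 and 4010 normalized read counts in stimulated replicates 1, 2 and 3, against 1142, 1607 and 1345 in controls. The lowest stimulated value lay far above the highest control value. The change was 1.48 ± 0.13 (limma adjusted p = 0.0013), a ratio of means of 2.76.

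Atp2b1 (chromosome 10, 98914406 to 99026143, plus strand) encodes PMCA1, the other plasma membrane pump expressed here. It had 4123, 3873 and 4018 in stimulated samples, against 5596, 5277 and 5708 in controls, so the groups did not overlap. Its change of -0.46 ± 0.07 passed limma (adjusted p = 0.00855). Without stimulated replicate 3 or control replicate 3 it did not pass (adjusted p up to 0.0510).

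The balance between both pump genes therefore differed, a comparison within each library that no scaling factor touches. Per kilobase of exon, the ratio of Atp2b4 to Atp2b1 was 1.12, 1.15 and 1.24 in stimulated samples, against 0.254, 0.378 and 0.293 in controls. The 2 groups did not overlap, and an exact two-sided permutation test gave p = 0.1, the smallest that 3 against 3 samples allow. Since Atp2b4 lay above and Atp2b1 below all control values, this separation was fixed beforehand and the test adds no support. Of the summed Atp2b level, Atp2b4 made up 53.8% ± 1.27 in stimulated and 23.4% ± 3.68 in control samples (SD, n = 3 each). Atp2b3 was listed at 1 to 4 in every library.

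Atp2c1 (chromosome 9, 105403539 to 105527319, minus strand) encodes the secretory pathway pump SPCA1, which carries calcium and manganese into the Golgi. It had 4297, 4940 and 5322 in stimulated samples, against 2417, 2440 and 2497 in controls. The controls were close together and the lowest stimulated value lay well above them. The change was 0.98 ± 0.10 (limma adjusted p = 0.00178). Opposite-strand exons of Aste1 overlie 18.9% of its exonic sequence, so its level is uncertain where counting ignored strand.

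Its relative Atp2c2, which encodes SPCA2, stood far lower per kilobase. It had 11, 9 and 11 in stimulated samples, against 26, 35 and 19 in controls, with no overlap. The change of -1.25 ± 0.33 missed the threshold (limma adjusted p = 0.0505) and passed with the replicate block (0.0412).

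Atp2a2 (chromosome 5, 122453513 to 122502225, minus strand) encodes SERCA2, the pump of the smooth muscle reticulum. It had 12255, 12207 and 13441 in stimulated samples, against 9729, 8495 and 9483 in controls. It changed by 0.45 ± 0.08 (limma adjusted p = 0.0166), a ratio of means of 1.37, and made up 98.4% ± 0.11 of the summed Atp2a level per kilobase in stimulated and 97.3% ± 1.13 in control samples. The call was lost without stimulated replicate 3, control replicate 1 or control replicate 3 (adjusted p up to 0.0822). Atp2a3, the SERCA3 gene, had 171, 151 and 167 in stimulated samples, against 186, 284 and 139 in controls, and these overlap (-0.25 ± 0.26, limma adjusted p = 0.575). Atp2a1, the SERCA gene of fast skeletal muscle, was at 6 to 15 in stimulated and 7 to 13 in control samples.

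The levels of Pln and Casq2 were near 0. Pln encodes phospholamban, the SERCA inhibitor of heart and smooth muscle, and was listed at 1, 1 and 1 in stimulated samples, against 1, 4 and 14 in controls (-1.41 ± 0.75, limma adjusted p = 0.271). Opposite-strand exons of Cep85l and Gm47644 together overlie 64.7% of Pln exonic sequence, so these few reads are uncertain. Casq2, the calsequestrin that stores calcium in the cardiac reticulum, was at 1, 8 and 8 in stimulated samples, against 3, 11 and 15 in controls (-0.75 ± 0.79, limma adjusted p = 0.59). Neither gene passed limma in these libraries. The 8 cardiac and skeletal muscle markers analysed summed to 921 to 1667 in stimulated and 388 to 673 in control libraries, most of it Acta1. By limma Acta1 rose (adjusted p = 0.0147) and Tnni3 fell (adjusted p = 0.0366). Without Acta1 the sums were 124 to 182 in stimulated and 116 to 304 in control libraries, which overlap, with Ckm, Myh6 and Actn2 at 0 in at least 1 library.

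**Figure D2:**
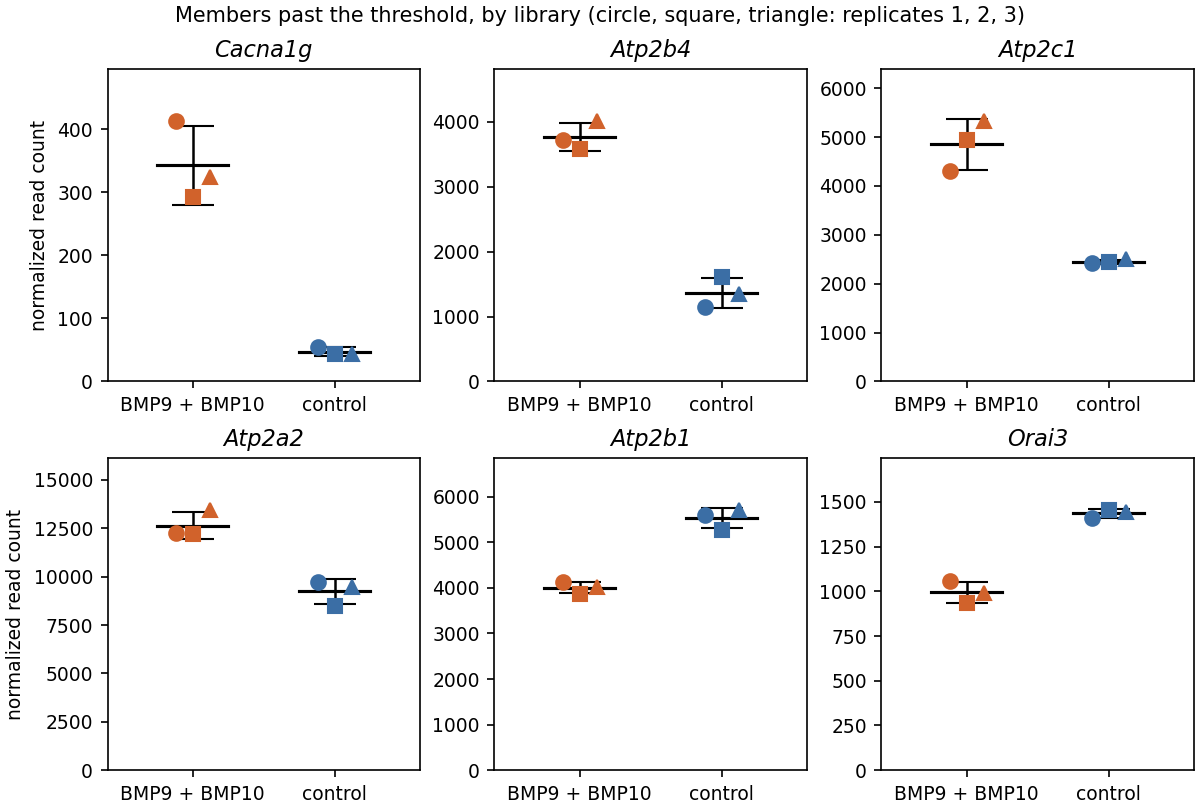
Normalized read counts of the 6 members past the threshold in each library, stimulated on the left and control on the right of each panel; circles, squares and triangles are replicates 1, 2 and 3, and bars are mean ± SD (n = 3). The groups do not overlap in any panel, with Cacna1g at 292 to 413 in stimulated and 43 to 55 in control samples.

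Among the voltage-gated pore subunits, the T-type channel gene Cacna1g rose most of all members. T-type channels open at more negative voltages than L-type channels. Cacna1g (chromosome 11, 94408391 to 94474198, minus strand), which encodes Cav3.1, had 413, 292 and 324 in stimulated samples, against 55, 44 and 43 in controls. The stimulated samples were all far above the controls, which lay close together. The change was 2.82 ± 0.20 (limma adjusted p = 0.000689), a ratio of means of 7.25, and no exon of another gene overlaps its exons.

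The other T-type gene analysed was Cacna1h (Cav3.2). It had 73, 91 and 46 in stimulated samples, against 116, 154 and 108 in controls, with no overlap. Its change of -0.88 ± 0.29 did not pass limma (adjusted p = 0.0947) and passed with the replicate block (0.0142). Per kilobase, Cacna1g stood at 5.45, 3.09 and 6.78 times Cacna1h in stimulated samples, against 0.457, 0.275 and 0.383 times in controls (exact two-sided permutation p = 0.1, the smallest possible). With Cacna1g above and Cacna1h below all control values, that separation was fixed beforehand too and adds no support.

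Cacna1c encodes Cav1.2, the main L-type channel of vascular smooth muscle, and had the highest mean level per kilobase of the 8 pore subunit genes in both groups. In control replicate 1 Cacna1a stood higher, at 34.3% of the summed level against 22.5% for Cacna1c. Cacna1c had 1079, 2416 and 1680 in stimulated samples, against 537, 1519 and 845 in controls. The groups overlap, and within each replicate number the stimulated sample was higher, by 1.01, 0.67 and 0.99 on the log2 scale for numbers 1, 2 and 3. The change of 0.89 ± 0.42 did not pass limma without the block (adjusted p = 0.218) and passed with it (0.00103).

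None of the other pore subunit genes passed without the block. Cacna1a, the P/Q-type gene, had 350, 110 and 273 in stimulated samples, against 441, 158 and 423 in controls (-0.49 ± 0.54, limma adjusted p = 0.602 without and 0.0207 with the replicate block). It was lowest in replicate 2 of both groups, and lower in the stimulated sample of every number. Cacna1b (N-type) was at 99 to 144 in stimulated and 108 to 167 in control samples (-0.12 ± 0.23, limma adjusted p = 0.781). Cacna1d (Cav1.3, L-type) was at 217 to 298 and 216 to 321 (0.03 ± 0.20, limma adjusted p = 0.946). Cacna1e and Cacna1f stayed at 9 or below in all 6 libraries. Within the summed pore subunit level per kilobase, Cacna1g made up 19.2% ± 4.59 in stimulated and 3.72% ± 0.962 in control samples, and Cacna1c 45.1% ± 14.9 and 34.6% ± 14.3 (SD, n = 3 each).

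None of the 12 accessory subunit genes passed limma without the block, with or without voom weights. Of the 12, 0 had an unadjusted p under 0.05, against 6247 of all 21743 genes tested. The alpha2-delta (Cacna2d) and beta (Cacnb) subunits set the trafficking and gating of the pore. The highest of each family per kilobase were Cacna2d1, Cacnb3 and Cacng7. Cacna2d1, the alpha2-delta-1 gene, had 1623, 1852 and 2027 in stimulated samples, against 1599, 1447 and 1911 in controls (0.15 ± 0.13, limma adjusted p = 0.503), and these overlap. Cacnb3, the beta-3 gene, had 1168, 1930 and 1375 in stimulated samples, against 1354, 1809 and 1518 in controls (-0.09 ± 0.20, limma adjusted p = 0.818).

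Cacng7 belongs to the gamma subunit family known as TARPs in neurons. It had 889, 443 and 941 in stimulated samples, against 1258, 401 and 1199 in controls, and replicate 2 was lowest in both groups (-0.24 ± 0.49, limma adjusted p = 0.799). Without both libraries numbered 2 it changed by -0.42 (limma adjusted p = 0.0443). Cacnb2, the beta-2 gene, had 200, 467 and 327 in stimulated samples, against 128, 286 and 223 in controls, higher in the stimulated sample of every number (0.63 ± 0.39, limma adjusted p = 0.337 without and 0.00666 with the replicate block). Cacnb1 (-0.21 ± 0.20) and Cacnb4 (-0.04 ± 0.38) did not pass either fit. Cacna2d2, Cacna2d3, Cacna2d4, Cacng1, Cacng4 and Cacng8 were at 34 or below in all 6 libraries.

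**Figure D3:**
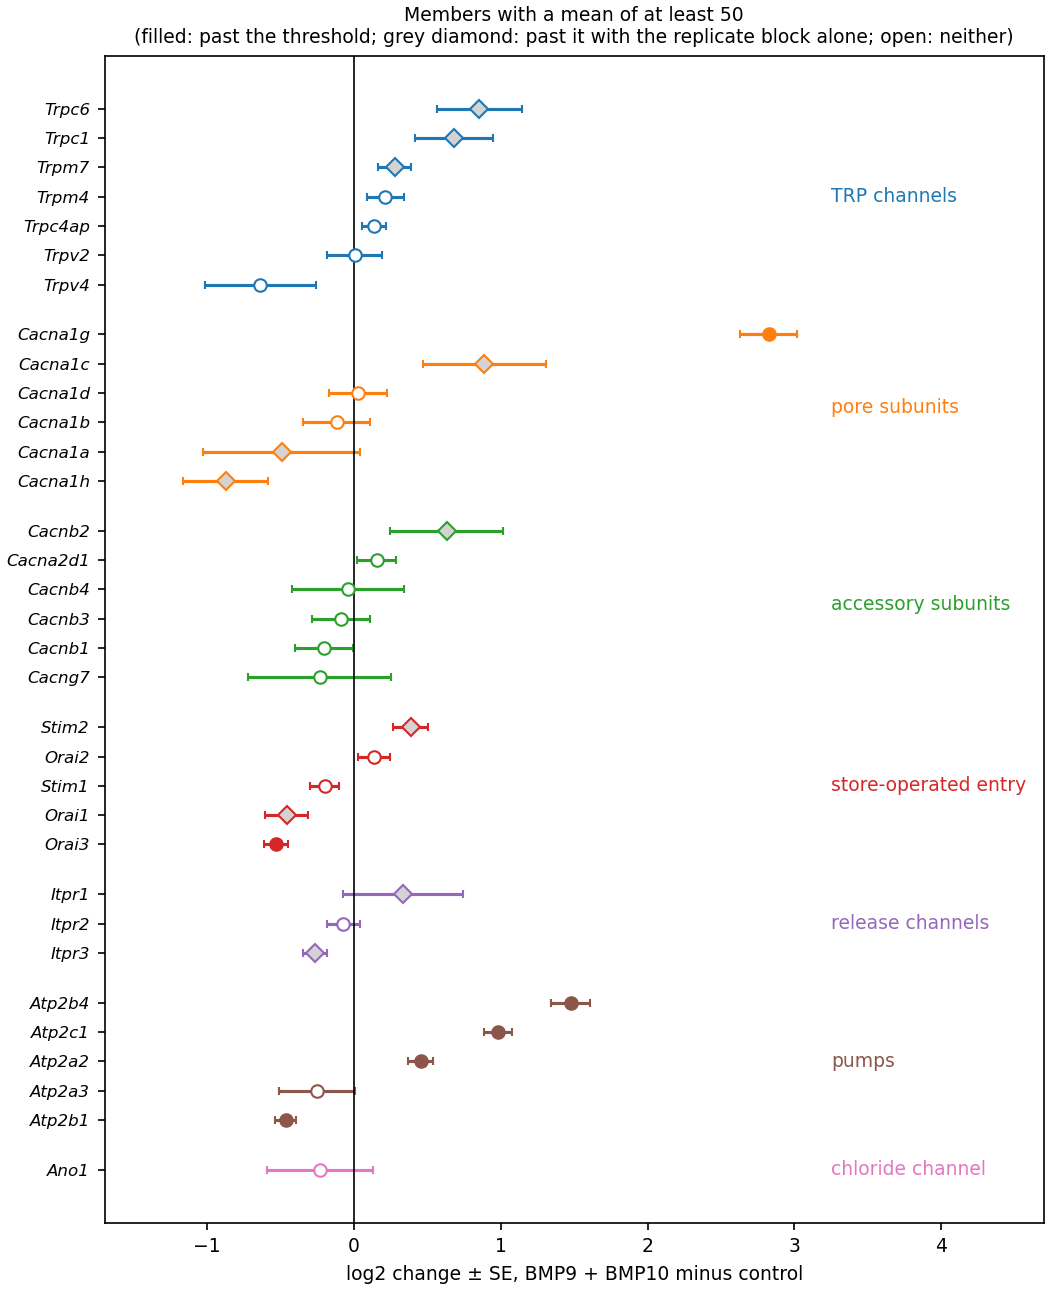
Log2 change ± SE (stimulated minus control, n = 3 each) of the 33 members with a mean of at least 50, grouped by role. Filled points passed limma at an adjusted p under 0.05, grey diamonds passed with the replicate block alone and open circles passed neither; Cacna1g (2.82), Atp2b4 (1.48) and Atp2c1 (0.98) stand to the right, Atp2b1 (-0.46) and Orai3 (-0.53) to the left.

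Of the 5 store-operated entry genes, Orai3, which encodes a channel subunit of the ORAI family, fell, and the other 4 did not pass without the block. Its gene spans 127769815 to 127775150 on the plus strand of chromosome 7, directly after the promoter window printed above. It had 1057, 935 and 990 in stimulated samples, against 1408, 1455 and 1446 in controls, and the groups were far apart relative to their spread. The change was -0.53 ± 0.08 (limma adjusted p = 0.00923). It did not pass without stimulated replicate 3 or control replicate 3 (adjusted p up to 0.0538).

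Orai1, the gene of the classical store-operated channel, had 366, 492 and 370 in stimulated samples, against 556, 604 and 517 in controls, with no overlap. Its change of -0.46 ± 0.15 did not pass limma (adjusted p = 0.0872) and passed with the replicate block (0.0154). Orai2 had 755, 648 and 736 in stimulated samples, against 673, 678 and 592 in controls (0.14 ± 0.11, limma adjusted p = 0.462). Per kilobase, Orai3 stood at 3.97, 4.10 and 3.82 times Orai2 in stimulated samples, against 5.94, 6.09 and 6.93 times in controls (exact two-sided permutation p = 0.1, the smallest possible). Orai3 by itself already lay below all control values, so this ratio is not separate support.

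The store sensor genes did not pass limma without the block. Stim2, whose protein answers small falls of store calcium, had 1414, 1632 and 1532 in stimulated samples, against 1108, 1352 and 1055 in controls, with no overlap. The change of 0.39 ± 0.12 did not pass limma (adjusted p = 0.0777) and passed with the block (0.0134). Stim1 had 1661, 1746 and 1483 in stimulated samples, against 1986, 1721 and 1902 in controls (-0.20 ± 0.10, limma adjusted p = 0.241). Per kilobase, the ratio of Stim2 to Stim1 was 1.90 ± 0.184 in stimulated and 1.28 ± 0.267 in control samples (SD, n = 3 each), with no overlap (exact two-sided permutation p = 0.1). Stim2 by itself already lay above all control values, so this ratio is not separate support either.

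**Figure D4:**
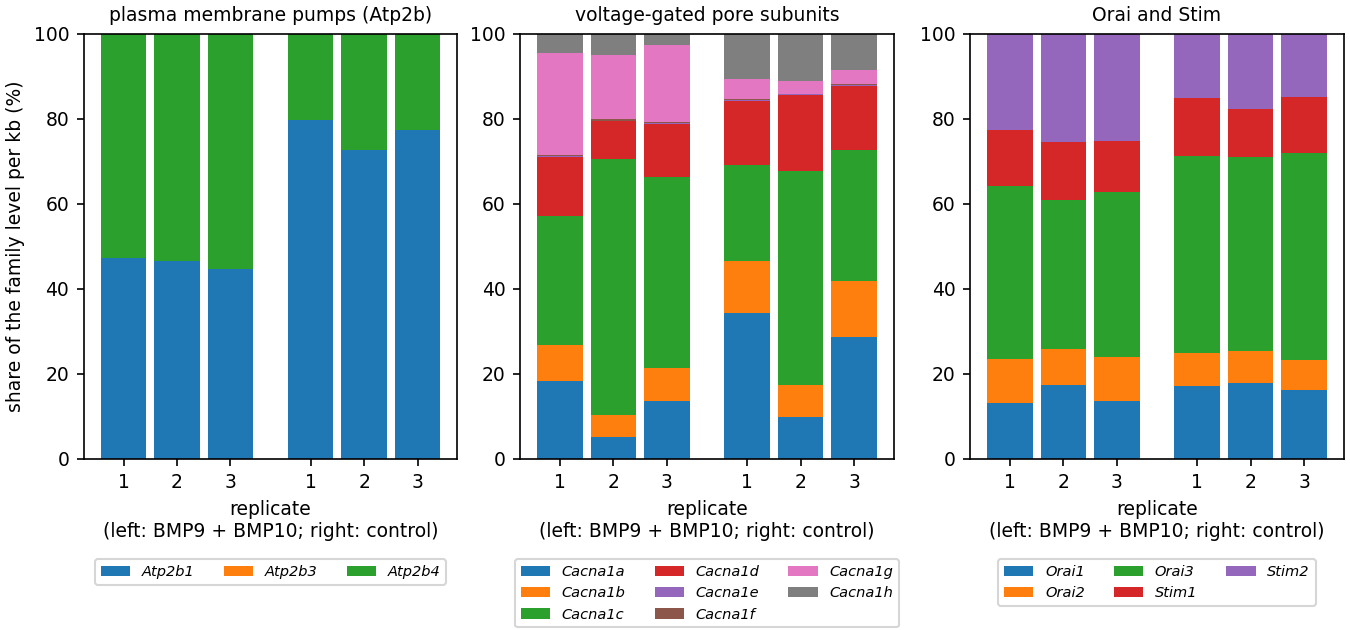
Share (%) of each member in the summed normalized read count per kilobase of its family, by library, with stimulated replicates 1 to 3 to the left and control replicates 1 to 3 to the right in each panel. Atp2b4 made up 52.8% to 55.3% of the plasma membrane pump level in stimulated and 20.2% to 27.4% in control samples; the Cacna1g share of the pore subunits and the Stim2 share of the store-operated genes were also larger in every stimulated library than in any control.

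Of the release channels, the 3 inositol trisphosphate receptor genes were well expressed and the 3 ryanodine receptor genes were not. None passed limma without the block, with or without voom weights. An unadjusted p under 0.05 was found for 1 of the 6, against 6247 of all 21743 genes tested. Itpr3 was the highest per kilobase. It had 1918, 1904 and 2104 in stimulated samples, against 2348, 2483 and 2300 in controls, with no overlap (-0.27 ± 0.08, limma adjusted p = 0.0732 without and 0.0386 with the replicate block). Itpr2 had 1188, 1248 and 1091 in stimulated samples, against 1226, 1382 and 1109 in controls (-0.07 ± 0.11, limma adjusted p = 0.72).

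Itpr1, the receptor type dominant in vascular smooth muscle, varied more between replicate numbers than the other Itpr genes. It had 1324, 2974 and 1709 in stimulated samples, against 948, 2510 and 1410 in controls, and was higher in the stimulated sample of every number, by 0.48, 0.24 and 0.28 on the log2 scale. The change of 0.33 ± 0.41 did not pass limma (adjusted p = 0.647) and passed with the block (0.0193). Per kilobase, the ratio of Itpr1 to Itpr3 was 0.503 ± 0.232 in stimulated and 0.333 ± 0.152 in control samples (SD, n = 3 each). These overlap (exact two-sided permutation p = 0.4). Among the ryanodine receptors, Ryr3 was highest per kilobase, at 26, 67 and 34 in stimulated samples, against 14, 56 and 41 in controls (0.28 ± 0.57, limma adjusted p = 0.796). Ryr1 was at 15 to 23 and 3 to 32, and Ryr2, the cardiac type, at 9 to 16 in stimulated and 15 to 20 in control samples.

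None of the 17 members with TRP symbols passed limma without the block, with or without voom weights, and the groups overlapped in all 17. Trpa1, outside the rule and on the pathway list described below, fell. It had 20, 15 and 13 in stimulated samples, against 32, 35 and 40 in controls (-1.12 ± 0.28, limma adjusted p = 0.0422). The channel gene Pkd2 of that list rose (0.36 ± 0.08, limma adjusted p = 0.0341). Both calls were lost without some single libraries, and that of Pkd2 also with equal library totals. An unadjusted p under 0.05 was found for 4 of the 17 members, against 6247 of all 21743 genes tested, which is no larger share. Trpm7, a channel fused to a kinase that conducts magnesium and calcium, was the highest TRP channel per kilobase among the members. It had 4511, 5126 and 5859 in stimulated samples, against 3973, 4216 and 4557 in controls (0.28 ± 0.11, limma adjusted p = 0.16 without and 0.0221 with the replicate block). Trpm4, a calcium-activated cation channel gene, was at 916 to 1088 in stimulated and 765 to 972 in control samples (0.21 ± 0.13, limma adjusted p = 0.328).

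The TRPC genes Trpc6 and Trpc1, which encode cation channel subunits of vascular smooth muscle, were higher in the stimulated sample of every replicate number. Trpc6 had 337, 667 and 447 in stimulated samples, against 202, 340 and 246 in controls, and was higher by 0.74, 0.97 and 0.86 on the log2 scale within numbers 1, 2 and 3 (0.85 ± 0.29, limma adjusted p = 0.1 without and 0.00173 with the replicate block). Trpc1 had 311, 562 and 443 in stimulated samples, against 203, 345 and 267 in controls (0.68 ± 0.27, limma adjusted p = 0.149 without and 0.00337 with the block). Trpc7 and Trpc5os were at 4 or below in all 6 libraries. Trpc4ap, not a channel, had 6354, 6170 and 6784 in stimulated samples, against 6214, 5515 and 5858 in controls (0.14 ± 0.08, limma adjusted p = 0.32).

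In the TRPV family Trpv2 was highest per kilobase, with 952, 875 and 864 in stimulated samples, against 1010, 1071 and 661 in controls, and these overlap (0.00 ± 0.19, limma adjusted p = 0.995). Trpv4, a channel known for its part in osmotic and mechanical sensing, had 50, 30 and 46 in stimulated samples, against 45, 108 and 55 in controls (-0.64 ± 0.38, limma adjusted p = 0.323). Trpv1, Trpv3 and Trpv6, and Trpm1, Trpm2, Trpm3 and Trpm6, were at 50 or below in all 6 libraries. Among them Trpv3, at 0, 0 and 1 in stimulated samples, against 11, 1 and 6 in controls, passed only when control replicate 2 was left out (-2.13 ± 0.76 and limma adjusted p = 0.116 with all libraries). Ano1, the calcium-activated chloride channel that depolarizes smooth muscle when calcium rises, had 309, 698 and 671 in stimulated samples, against 459, 865 and 595 in controls (-0.24 ± 0.36, limma adjusted p = 0.721).

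Some members differed between replicate numbers in both groups alike. Of the 59, 21 were highest in replicate 2 of both groups (35.6%, against 22.7% of all genes tested) and 10 were lowest there (16.9%, against 21.1%). At a mean of at least 50 the shares were 36.4% of members against 27.5% of all genes for highest, and 18.2% against 26.1% for lowest. The 21 include Cacna1c, Cacnb2, Itpr1, Trpc6, Trpc1 and Ano1, and the 10 include Cacna1a and Cacng7. In the same libraries the endothelial marker sum was 45120 in stimulated and 46197 in control replicate 2, against at most 17091 and 14551 in the other replicates of each group, and in both groups replicate 2 held the highest value of 6 of 10 epithelial and 6 of 10 fibroblast markers. It also held the highest smooth muscle marker sum in both groups (without Acta2, in the stimulated group only), and the highest value of 3 of those 10 genes. The part of these cell types in the levels of the members was not tested.

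**Figure D5:**
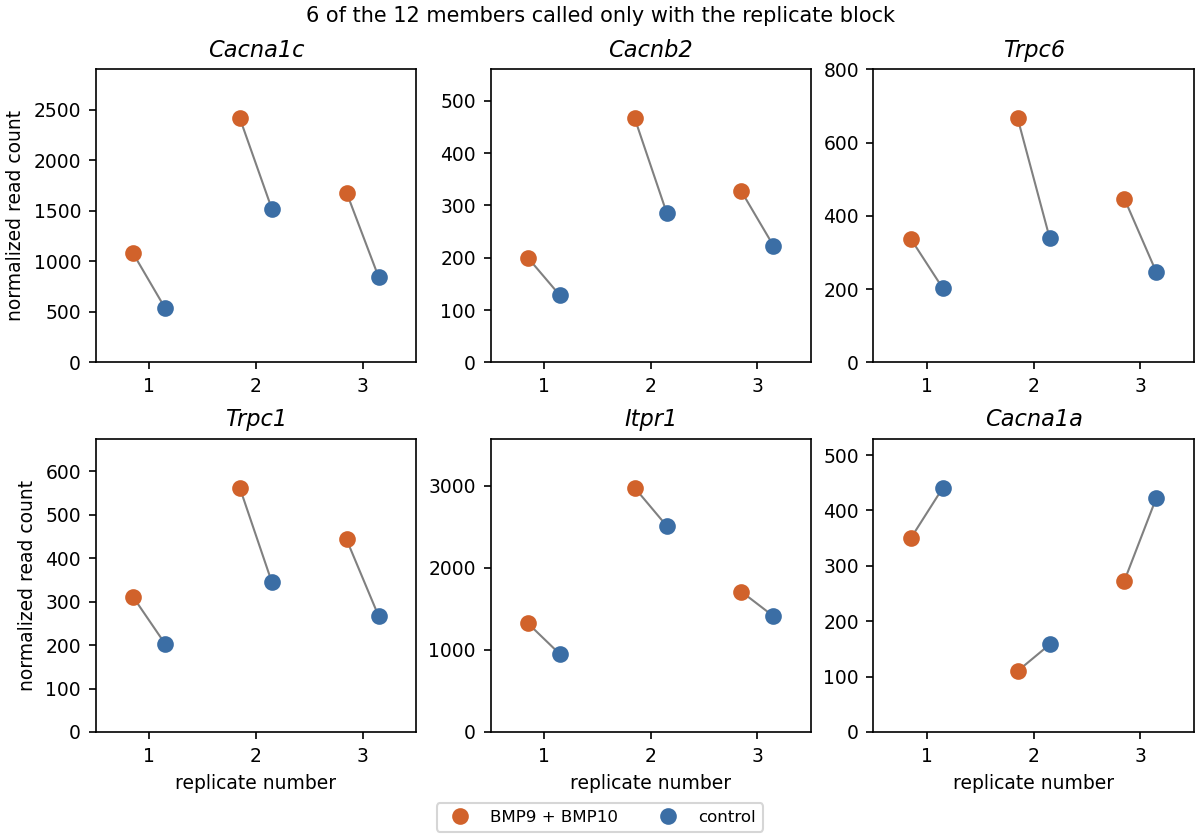
Normalized read counts of 6 of the 12 members called with the replicate block and not without it, plotted by replicate number, with the stimulated sample left of the control sample and a line joining both. In Cacna1c, Cacnb2, Trpc6, Trpc1 and Itpr1 the stimulated sample is higher at every number and replicate 2 is highest; in Cacna1a it is lower at every number and replicate 2 is lowest.

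The wider calcium pathway was read from a list of 90 symbols without members. It held exchangers, mitochondrial uptake, store proteins, calmodulin and its kinases, calcineurin and its regulators, NFAT factors and phospholipases C. It also held further channel genes (among them Piezo, Pkd, Mcoln and Tpcn genes and Trpa1) and RGK small GTPase genes. Of the 88 analysed here, 13 rose, 6 fell and 69 did not pass limma (21.6% called, against 13.4% of all genes tested), with a median change of -0.04. With the replicate block 19 rose and 13 fell (36.4%, against 26.8%). The share called depends on level. Among all genes with a mean of at least 50 it was 20%, and 39.8% with the block. The list was not matched to other genes by level.

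Piezo2, a mechanically gated channel gene, had the largest rise on that list, at 8920, 11651 and 9457 in stimulated samples, against 1555, 3844 and 1895 in controls (2.15 ± 0.32, limma adjusted p = 0.00747). The calcium-regulated transcription factor gene Nfatc1 had 1692, 1743 and 1528 in stimulated samples, against 753, 852 and 699 in controls (1.11 ± 0.11, limma adjusted p = 0.00175). The calcineurin inhibitor gene Rcan1 had 1866, 2259 and 1794 in stimulated samples, against 1339, 1196 and 1320 in controls (0.61 ± 0.11, limma adjusted p = 0.0153). It rose, and the calcineurin subunit genes Ppp3cb (0.51 ± 0.10) and Ppp3r1 (0.50 ± 0.10) and the factor gene Nfatc3 (0.45 ± 0.10) rose as well. The rises of Rcan1, Ppp3cb, Ppp3r1 and Nfatc3 were each lost without some single libraries, and those of Ppp3cb, Ppp3r1 and Nfatc3 also with equal library totals.

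Slc8a1, the sodium-calcium exchanger NCX1, had 1186, 1173 and 1185 in stimulated samples, against 825, 549 and 632 in controls (0.84 ± 0.15, limma adjusted p = 0.0148). Its mitochondrial counterpart Slc8b1 fell (741, 759 and 643 in stimulated samples, against 1028, 1174 and 1014 in controls; -0.59 ± 0.11, limma adjusted p = 0.0164). Mcu, the pore of the mitochondrial uniporter, had 405, 649 and 578 in stimulated samples, against 671, 651 and 668 in controls (-0.31 ± 0.18, limma adjusted p = 0.297). Calr, the reticulum buffer calreticulin, was at 27230 to 27973 in stimulated and 26195 to 27034 in control samples (0.05 ± 0.07, limma adjusted p = 0.648).

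Of the 4 RGK small GTPase genes on the list, whose products inhibit voltage-gated calcium channels, Gem and Rrad fell, and Rem1 and Rem2 did not pass. Gem had 171, 217 and 165 in stimulated samples, against 362, 584 and 522 in controls (-1.39 ± 0.21, limma adjusted p = 0.00801). Rrad had 75, 96 and 84 in stimulated samples, against 146, 182 and 201 in controls (-1.04 ± 0.19, limma adjusted p = 0.0152). Among the kinases, Camkk1, which activates other calmodulin kinases, rose, with 514, 443 and 564 in stimulated samples, against 200, 108 and 192 in controls (1.64 ± 0.25, limma adjusted p = 0.00822). Camk2a fell, with 44, 51 and 36 in stimulated samples, against 108, 112 and 98 in controls (-1.27 ± 0.21, limma adjusted p = 0.0101). Camk2d, which is more abundant per kilobase than Camk2a, had a change of -0.26 ± 0.17 (limma adjusted p = 0.38). Pkd1, which encodes polycystin-1, rose, with 9605, 10642 and 10417 in stimulated samples, against 7012, 7893 and 7248 in controls (0.47 ± 0.08, limma adjusted p = 0.0128). Tpcn1, a channel gene of the endolysosome, fell, with 1788, 1363 and 1757 in stimulated samples, against 3009, 2431 and 2679 in controls (-0.73 ± 0.14, limma adjusted p = 0.0159). Of these, limma no longer called Gem, Camkk1, Rrad, Camk2a, Slc8a1, Slc8b1, Pkd1 and Tpcn1 without stimulated replicate 3, the most deeply sequenced library. Leaving out control replicate 1 also ended the calls of Camk2a, Pkd1, Tpcn1 and Slc8b1, and leaving out control replicate 3 those of Slc8a1, Rrad, Pkd1, Tpcn1 and Slc8b1. The call of Slc8a1 was lost without both libraries numbered 2 and that of Pkd1 with equal library totals.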

How the data were processed

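Total RNA went into a strand-preserving library kit, per the labels' protocols. The submitters' processing notes name Trimmomatic 0.38, FastQC, featureCounts 1.6.3 (Subread), STAR 2.6.1d, DESeq and DESeq2 1.18.1, without roles, and mm10 beside hg38 and GRCh38. How strand was set in counting, and with which annotation, is not given in the sources used here. The deposited score per gene and library is a read count scaled by 1 factor per library and rounded, as numbers skipped or doubled at regular steps show, so count models were not used.

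Symbols, mm10 positions and merged exon lengths came from GENCODE M21, which matched 21747 of 21785 rows. Merged exons overstate the length of a single transcript. Genes were tested with limma 3.58.1 (R 4.3.3; trend option) as log2(value + 1), for 21743 genes with a mean of at least 1 (all 59 members), with treatment as the only term and 4 residual degrees of freedom. Fold changes on this scale understate those of low genes. The fit was tested on simulated data. Permutation tests used scipy 1.17.1. Besides the ratios printed, those of Cacna1g to Cacna1c, Orai1 to Orai2 and Atp2c1 to Atp2a2 were computed, and their groups did not overlap.

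Whether replicate numbers pair the samples was checked with the 13185 genes whose mean reached 50. Libraries numbered 1, 2 and 3 gave correlations of 0.747, 0.741 and 0.218 between their deviations from the group means, so the numbers were taken as pairs, although their meaning is unlabelled. Control replicate 3 was closer to stimulated replicate 1 (0.287).

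The members, the pathway list, the marker lists and the alternatives were chosen with earlier results of these data known. Values are given for each member past the threshold, the highest of each family per kilobase, Pln, Casq2 and Ano1, for the 10 pathway genes with the smallest p, and for Slc8a1, Mcu, Calr, Rcan1 and Nfatc1; other genes named were chosen after their values were seen. The values of 1 member are not reported here.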

Additional observations from a re-analysis of the deposited data

How the results depend on the processing

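Alternatives were other scalings, pseudocounts and filters, limma-voom weights, the replicate block and leaving out libraries. Of the 6 members called, Cacna1g, Atp2b4 and Atp2c1 passed limma in all 16 alternatives, and Atp2a2, Atp2b1 and Orai3 lost the call only without single libraries. With the replicate block 5837 genes, 18 members and 32 pathway genes were called. It cost none of the 6 member calls.

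With equal library totals 10 members passed (4 higher, 6 lower), and the median of all genes shifted by -0.17, so the added falls (Atp2c2, Itpr3, Orai1 and Stim1) are relative to that shift. Rises made up 64.5% of all calls as deposited, against 51.2% after upper-quartile scaling and 33.4% after scaling to equal totals. Without both libraries numbered 2, 9 members passed.

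Leaving out 1 library gave 917 to 2384 called genes, 3 to 8 members, 3 to 17 pathway genes and 2 to 5 of the 5 calcium response genes (Rcan1, Nfatc1, Rrad, Gem, Camk2d). The lowest counts came without stimulated replicate 3 (917 genes, 3 members, 3 pathway genes), control replicate 3 (1163, 3 and 6) and control replicate 1 (1164, 5 and 6). The cause was not tested.

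None of the named genes that passed limma changed direction. Among those that did not pass, the direction turned with equal totals for Trpv2 (-0.17), Cacna2d1 (-0.019), Cacna1d (-0.15), Orai2 (-0.035), Trpc4ap (-0.038) and Calr (-0.12), with upper-quartile factors for Trpv2 (-0.076), Cacna1d (-0.052) and Calr (-0.025), and without both libraries numbered 2 for Atp2a3 (0.071). Leaving out 1 library gave changes of both signs for Cacna1a (-0.98 to 0.00044), Trpv2 (-0.21 to 0.13), Cacnb3 (-0.29 to 0.072), Cacnb4 (-0.47 to 0.20), Cacng7 (-0.77 to 0.11), Cacna1b (-0.28 to 0.042), Cacna1d (-0.097 to 0.19), Itpr2 (-0.15 to 0.0097), Atp2a3 (-0.50 to 0.017), Ryr3 (-0.29 to 0.67) and Ano1 (-0.45 to 0.15).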
